A study of Mus musculus with 4 samples.

Results

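Type 1 conventional dendritic cells (cDC1) were examined among the immune cells of mouse glioma. They were taken as the barcodes with 500 or more detected genes and under 10% mitochondrial UMIs that held at least 2 UMIs of Xcr1 and Clec9a together, fewer than 30 UMIs of C1qa, C1qb and C1qc, and no UMI of Cd3e, Cd79a or Ncr1. A UMI is a molecular tag that counts 1 captured mRNA molecule. This rule found 176 of the 13960 deposited barcodes, 95 of 6689 in the WT library and 81 of 7271 in the CaMKK2 KO library, and they are called cDC1-gated cells below. Of these, 166 carried the hashtag of 1 mouse and enter every comparison, and 10 carried 2 hashtags and were left out.

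The cells were live CD45+ leukocytes sorted from the hemisphere with the tumor in 4 WT and 4 CaMKK2 KO female mice of the C57Bl/6 strain, age- and sex-matched, on day 14 after CT2a glioma cells had been implanted in the brain. The CaMKK2 KO is a germline deletion, so every host cell lacks the kinase and not the dendritic cells alone. All 8 mice carried the tumor, and no tumor-free brain was analysed here. The 4 mice of a genotype were told apart by hashtag antibodies and loaded together on 1 10x channel, so genotype and channel cannot be told apart, and the numbers of the mice pair no WT with a CaMKK2 KO animal. The study states that C57BL/6J mice were bought, while CaMKK2 KO mice were provided by a Duke investigator. It describes its transgenic lines as made in C57BL/6 mice or backcrossed to them. Differences of colony or backcross cannot be told apart from genotype either.

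cDC1 develop under the transcription factors IRF8 and BATF3. The surface receptor XCR1 senses the chemokine XCL1 made by NK cells and CD8+ T cells, and CLEC9A binds actin exposed by dead cells. WDFY4 is needed for cross-presentation, the loading of antigen taken up from other cells onto MHC class I molecules, for which these cells are best known in anti-tumor immunity. Type 2 conventional dendritic cells (cDC2) rely on IRF4 and present mainly on MHC class II, mature dendritic cells carry the migration receptor CCR7, and plasmacytoid dendritic cells (pDC) are known for type I interferon.

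The cDC1-gated cells were not uniform when checked against their markers. Of the 166, 102 held an Xcr1 UMI and met no other dendritic cell gate (66 WT, 36 CaMKK2 KO), 35 were selected by Clec9a alone (13 WT, 22 CaMKK2 KO), 24 also met the gate for pDC (7 WT, 17 CaMKK2 KO) and 5 that for mature dendritic cells (4 WT, 1 CaMKK2 KO). The 4 markers outside the rule, Wdfy4, Snx22, Naaa and Tlr3, had a median sum of 52 UMIs in Xcr1-positive cells, 10 in Clec9a-only cells, 3 in cells of the mature gate and 0 in cells of the pDC gate. The genes of the pDC gate, Siglech, Ccr9, Cox6a2 and Ly6d, had a median sum of 83 UMIs in the cells it took and 0 in each of the others, which the gate itself fixes. By the 4 cDC1 markers the label fitted the Xcr1-positive cells, while 15 of the 24 cells of the pDC gate had no UMI of them. Those 24 cells did hold 2 to 7 UMIs of Clec9a, a gene of the rule, and had 1563 CPM of Klk1, a pDC gene outside the gate, which had no UMI in Xcr1-positive cells. Pooled over cells, Irf8 was at 3977 CPM (UMIs of a gene per 1000000 UMIs) in the pDC-gate cells, and at 2174 CPM in the Xcr1-positive and 1010.0 CPM in the Clec9a-only cells.

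**Figure D1:**
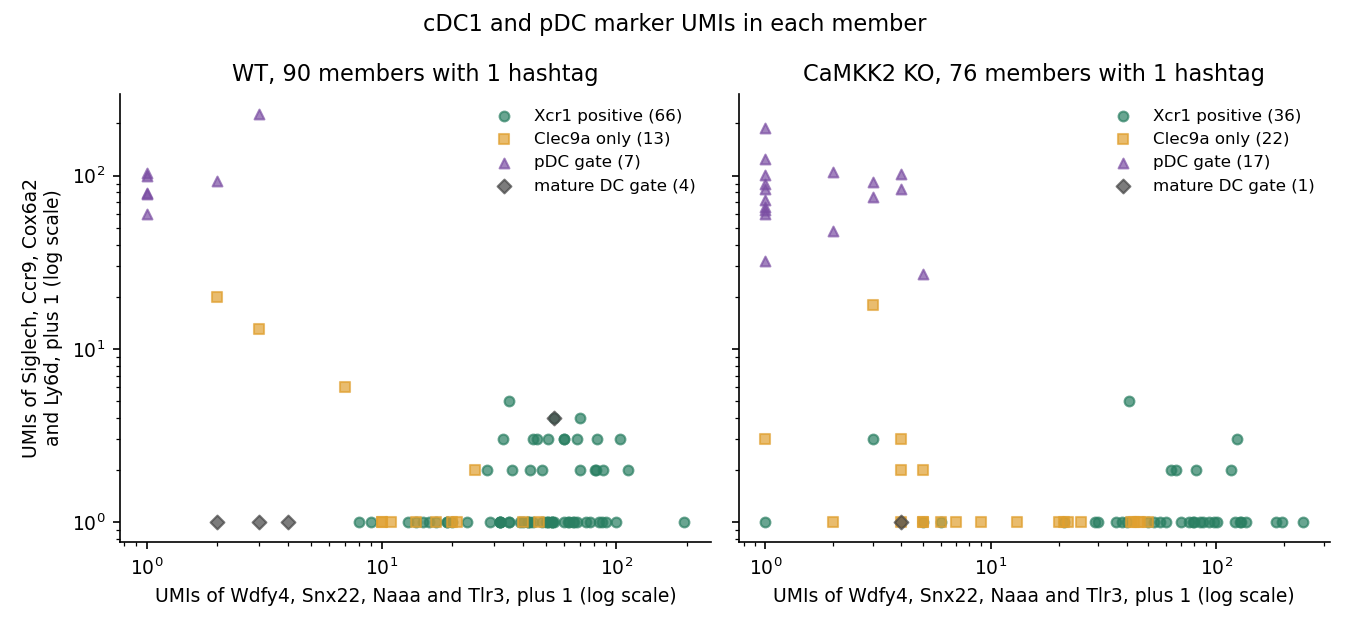
Each point is 1 of the 166 cDC1-gated cells with 1 hashtag, WT on the left and CaMKK2 KO on the right, with the summed UMIs of Wdfy4, Snx22, Naaa and Tlr3 on the x axis and of Siglech, Ccr9, Cox6a2 and Ly6d on the y axis, 1 added to each and both on log scales. The 102 Xcr1-positive cells spread along the x axis with at most 4 pDC marker UMIs, and the 24 cells of the pDC gate sit at the upper left with 26 to 226 pDC marker UMIs and at most 4 cDC1 marker UMIs.

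The mice differed in this makeup. Xcr1-positive cells numbered 12, 14, 12 and 28 in the WT mice and 11, 8, 12 and 5 in the CaMKK2 KO mice. Cells of the pDC gate numbered 0, 2, 1 and 4 in WT and 2, 2, 12 and 1 in CaMKK2 KO mice. CaMKK2 KO mouse 3 thus held 12 of the 24, which were 41.4% of its 29 cDC1-gated cells, and CaMKK2 KO mouse 2 held 13 of the 35 Clec9a-only cells. Where the call or sign of a gene given with its test changed without the pDC-gate members, both are given.

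Clec9a-only cells differed from Xcr1-positive cells in genes outside the rule. Pooled over cells, Tcf4, the transcription factor of pDC, was at 509 against 66.8 CPM, and Zeb2, a repressor needed for pDC and cDC2, at 250.4 against 7.07 CPM. Cd7 stood at 297 against 3.14 CPM, Ly6c2 at 992 against 195 CPM and the lectin Cd209d at 91.2 CPM against 0 UMIs. Naaa, an acid amidase of lysosomes, was at 567 against 1461 CPM, and Wdfy4 at 252 against 579 CPM. These are descriptions without a test, since the subsets were split by a gene of the rule. Ly6c2 and Cd7 were at 2608 and 335 CPM in gated pDC and at 394 and 222 CPM in gated cDC2. The cDC2 genes Cd209a (74.6 CPM against 0 UMIs) and Clec10a (91.2 against 6.68 CPM) also had higher levels in Clec9a-only cells. Of the 5 pDC genes outside the pDC gate, so had Tcf4 (509 against 66.8 CPM), Bcl11a (249 against 53.4 CPM) and Runx2 (89.6 against 14.9 CPM), while Klk1 was at 1.66 CPM against 0 UMIs and Pld4 at 284 against 301 CPM. The gate genes Siglech (53.1 against 6.28 CPM) and Ccr9 (46.4 against 11.8 CPM) also had higher levels in Clec9a-only cells, all below those of gated pDC.

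Near the threshold the marker levels moved in steps. Cells with a sum of 1 UMI of Xcr1 and Clec9a, of which 93 fell just outside, had 95.2 CPM of Wdfy4 and 158 CPM of Naaa. Those with a sum of 2, just inside (39 cells), had 164 CPM of Wdfy4 and 347 CPM of Naaa. At a sum of 3 (23 cells) the values were 326 and 674 CPM, and at 4 or more (104 cells) 562 and 1425 CPM. A further 28 barcodes with a sum of 2 or more were kept out by their C1q UMIs (9 WT, 19 CaMKK2 KO) and 14 by a lymphocyte UMI (7 WT, 7 CaMKK2 KO).

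cDC1-gated cells had more UMIs per cell, by the median, than the other gated dendritic cells. Their median was 21599 UMIs per cell in WT and 16664.5 in CaMKK2 KO mice, against 14424 and 15218 in gated cDC2 and 10348 and 10873 in gated mature dendritic cells. Summed per mouse, the unit of every test, they gave 231076 to 855584 UMIs. Levels are given as CPM of the UMIs a class had in a mouse, as the lowest to the highest of the 8 mice with the median.

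The genes that define the classes were compared first, as a description. Xcr1 averaged 330.1 CPM over the 8 mice in cDC1-gated cells and 0.989 CPM in the 144 cDC2-gated cells (Cd209a-positive, outside the other gates), and Clec9a 165 against 5.76 CPM. Cd209a, the lectin that gates cDC2, averaged 14.0 against 699.7 CPM. The 4 markers outside the rule averaged 465 CPM (Wdfy4), 119.6 CPM (Snx22), 1179.5 CPM (Naaa) and 179 CPM (Tlr3) in cDC1-gated cells. In cDC2-gated cells the same genes averaged 124, 4.22, 158 and 13.6 CPM, and in the 187 mature dendritic cells 21, 3.42, 6.73 and 4.71 CPM.

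To see what else set cDC1-gated cells apart from cDC2 of the same animals, all genes with 50 or more UMIs were tested within mice. Of 7757 genes, 1113 were higher (14.3%) and 825 lower (10.6%) in cDC1-gated cells by the edgeR quasi-likelihood test with mouse as a block. All 11 further genes of the cDC1 identity list were among the 1113, while 8 of 10 tested cDC2 identity genes were lower and 1 was higher. The median log2 fold change was 0.141 over all genes. With TMM scaling that median fell by 0.112 and the calls split into 829 higher and 1047 lower, so small differences depend on the scaling.

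Among transcription factors, Irf8 led. Its level was 879 to 2944 CPM (median 2160.1) in cDC1-gated cells and 102 to 485 CPM (median 214) in cDC2-gated cells, with no overlap between the classes (log2 fold change 3.17 ± 0.18, adjusted p = 2.06e-10). Its partner Batf3 was at 144 to 201 CPM (median 165) against 21.6 to 67.7 CPM (median 40.4) (log2 fold change 1.95 ± 0.21, adjusted p = 6.23e-07). Id2, an inhibitor of E proteins required for cDC1, was higher in 8 of 8 mice (log2 fold change 1.75 ± 0.23, adjusted p = 1.09e-05). Of the 14 transcription factors tested, these 3 were higher and 6 were lower in cDC1-gated cells, beside 14.3% and 10.6% of all genes.

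The 6 lower factors were not all of other lineages. Irf4, which cDC2 need, was at 0 to 21.6 CPM (median 3.50) against 12.6 to 54.0 CPM (median 37.4) (log2 fold change -3.06 ± 0.45, adjusted p = 2.98e-05), and was lower in each of the 8 mice although the ranges overlapped. Zeb2 was also lower in every mouse (log2 fold change -1.67 ± 0.32, adjusted p = 0.000579), with 16.9, 51.3, 5.94 and 69.0 CPM in the WT and 70.2, 158, 186 and 169 CPM in the CaMKK2 KO mice in cDC1-gated cells. In Xcr1-positive cells alone the log2 fold change of Zeb2 was -4.98. The other 4 were Klf4, another cDC2 factor, Nfil3, which cDC1 need to develop (log2 fold change -1.35 ± 0.38), Runx3 and the myeloid factor Spi1 (-0.49 ± 0.10). Tcf4 was not called (log2 fold change 0.12 ± 0.22, adjusted p = 0.747), and its sign turned without the pDC-gate members (-0.73, adjusted p = 0.0405).

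Called genes of endosomes and uptake included both identity and list genes. Ppt1, a lysosomal thioesterase, was at 511 to 910.3 CPM (median 705) against 53.0 to 136 CPM (median 88.8) (log2 fold change 3.02 ± 0.15, adjusted p = 2.78e-11). Rab7b, a small GTPase of late endosomes, was at 132 to 216 CPM (median 174) against 0 to 28.3 CPM (median 3.64) (log2 fold change 4.71 ± 0.35, adjusted p = 5.61e-09). Both genes separated the classes in all 8 mice. The surface molecules Cadm1 (log2 fold change 5.18 ± 0.63), Cd24a (2.56 ± 0.20) and Itgae, which encodes CD103 (1.92 ± 0.33), were higher as well, as was the uptake receptor Ly75 (DEC-205, 2.94 ± 0.39). The scavenger receptor Cd36 was at 21.6 to 79.0 CPM (median 43.9) and had UMIs in cDC2-gated cells of only 1 mouse. Of 8 tested genes of uptake, 3 were higher and 3 lower, beside 14.3% and 10.6% of all genes. Havcr2, Cd36 and Ly75 were higher, and Lrp1, an endocytic receptor of macrophages (-3.31 ± 0.34), Axl, a receptor for dead cells (-1.32 ± 0.34), and Cd300a (-2.0 ± 0.19) were lower.

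Of 13 nucleic acid sensing genes 3 were higher and 2 lower, beside 14.3% and 10.6% of all genes. Tlr11, which senses profilin of protozoa, was at 9.74 to 35.6 CPM (median 19.5) against 0 to 9.37 CPM (median 0) (log2 fold change 3.03 ± 0.56, adjusted p = 0.000337), and Tlr12, its partner, was higher too (log2 fold change 4.29 ± 0.56). Tlr3 was the other higher gene, and Irak4 and Sting1 were lower (Sting1 -0.61 ± 0.16).

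MHC class I processing genes were higher in part. Of 25 tested genes of MHC class I and cross-presentation, 10 were higher and 2 lower (3 with TMM scaling), against 14.3% and 10.6% of all genes. The 10 include Wdfy4, a cDC1 marker already given above. The median log2 fold change was 0.183 beside 0.141 over all genes. Without the pDC-gate members 8 were higher and 5 lower, and among Xcr1-positive cells 7 were higher and 6 lower. Psme1, a subunit of the proteasome activator PA28, was at 923 to 1389 CPM (median 1081) against 389.7 to 744 CPM (median 538) (log2 fold change 1.00 ± 0.10, adjusted p = 2.68e-07). The immunoproteasome subunits Psmb8 (0.66 ± 0.08) and Psmb9 (0.81 ± 0.12), the peptide transporter subunit Tap2 (0.84 ± 0.15) and the loading chaperone Pdia3 (0.80 ± 0.11) were also higher on the log2 scale, and Tap1 was not called (log2 fold change 0.06 ± 0.12, adjusted p = 0.757). The class I heavy chain H2-D1 was lower in all 8 mice (log2 fold change -0.32 ± 0.07, adjusted p = 0.00172), and so was Cybb, the NADPH oxidase subunit that holds the pH of phagosomes up (-1.62 ± 0.19).

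Of 10 tested MHC class II genes 5 were lower and none higher, beside 10.6% and 14.3% of all genes. The invariant chain Cd74 was at 18715 to 24122 CPM (median 20707) in cDC1-gated cells and at 23135 to 31309.6 CPM (median 27204) in cDC2-gated cells, lower in 8 of 8 mice (log2 fold change -0.36 ± 0.05, adjusted p = 2.03e-05). H2-Aa, H2-Ab1, H2-Eb1 and H2-DMa were the other 4, and 6 were lower with TMM scaling. In Xcr1-positive cells alone 1 of the 10 was lower and 1 higher, and without the pDC-gate members 2 were lower and 1 higher.

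Of 12 chemokine and chemokine receptor genes 2 were higher and 6 lower in cDC1-gated cells, beside 14.3% and 10.6% of all genes. Cxcr3, the receptor for CXCL9 and CXCL10, was at 20.8 to 69.1 CPM (median 40.2) against 0 to 18.7 CPM (median 0) (log2 fold change 3.84 ± 0.51, adjusted p = 9.64e-06). Ccr1, an inflammatory chemokine receptor, was at 7.01 to 60.9 CPM (median 23.2) against 118 to 493 CPM (median 244) (log2 fold change -3.27 ± 0.30, adjusted p = 9.58e-08), and Ccr2 (-1.54 ± 0.18) was lower as well. Cxcl10, which attracts CXCR3-bearing T cells, was lower in 7 of 8 mice (log2 fold change -3.95 ± 0.46, adjusted p = 1.61e-06), and Ccl5, another T cell attractant, likewise in 7 of 8 (-1.98 ± 0.46). Among growth factor receptors, Flt3 was higher (log2 fold change 0.95 ± 0.16, adjusted p = 0.000152) and Csf1r, the macrophage colony-stimulating factor receptor, was lower at 3.95 to 70.6 CPM (median 17.2) against 84.7 to 202 CPM (median 144) (-2.79 ± 0.27).

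Costimulatory genes were lower in part. Of 14 tested genes of T cell stimulation and checkpoints, 7 were lower and 1 higher, beside 10.6% and 14.3% of all genes, with a median log2 fold change of -0.716. Tnfsf9, which encodes the ligand of 4-1BB, was at 5.85 to 35.6 CPM (median 12.1) against 61.8 to 229 CPM (median 87.2) (log2 fold change -2.98 ± 0.24, adjusted p = 1.58e-08). Cd40 (-1.53 ± 0.18), Cd86 (-0.60 ± 0.12) and Cd274, which encodes PD-L1 (-0.69 ± 0.21), were lower, and Havcr2, which encodes TIM-3, was higher (log2 fold change 0.61 ± 0.21, adjusted p = 0.0347) but not with TMM scaling (adjusted p = 0.0843).

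Interferon-induced genes were lower than in cDC2 in part. Of 26 type I interferon response genes, 14 were lower and 1, Bst2, was higher, and Bst2 (log2 fold change 0.42 ± 0.11) was not called without the pDC-gate members and was lower among Xcr1-positive cells (-0.40, adjusted p = 0.0203). Of 22 interferon-gamma response genes, 11 were lower and 1, Cxcl9, was higher. Over all genes 10.6% were lower and 14.3% higher. The medians were -0.482 and -0.683 beside 0.141 over all genes. Of the 12 immediate early and heat shock genes, which rise when tissue is dissociated, 7 were lower. Whether tissue handling had a part in these differences was not tested.

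By the rule for the largest changes, the genes with the highest log2 fold change over cDC2, higher in every mouse, were Gcsam, Fcrla, Cacna1s, Kif11, Cd36, Birc5, Ttc39a, Kif20b, Lrrc1 and Fzd1. Gcsam, an adaptor named for germinal center B cells, was at 51.9 to 108 CPM (median 71.5) and had no UMI in cDC2-gated cells, which makes it at least 58.6-fold higher with 3 counts over the class as the floor. Fcrla, an Fc receptor-like protein, was at 41.6 to 222 CPM (median 81.6) against 0 to 4.68 CPM (median 0) (log2 fold change 6.11 ± 0.38, adjusted p = 4.93e-10). CaMKK2 KO mouse 3 had the highest Fcrla level. Cacna1s, Kif11, Ttc39a, Kif20b, Lrrc1 and Fzd1 also had no UMI in cDC2-gated cells, with bounds from 11.4-fold (Lrrc1) to 17.8-fold (Kif11). Kif11, Kif20b and Birc5 act in mitosis.

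Lowest against cDC2 were Ccl9, Fn1, Tnip3, Sirpb1c, Clec4a3, Fcor, Cd14, Osm, Gda and Clec4a2, lower in every mouse. Ccl9, a chemokine of myeloid cells, was at 0 to 34.1 CPM (median 7.59) against 186 to 651 CPM (median 414) (log2 fold change -5.20 ± 0.27, adjusted p = 7e-11). Fn1, which encodes fibronectin, was at 0 to 8.91 CPM (median 4.71) against 16.9 to 285 CPM (median 159) (log2 fold change -5.04 ± 0.33, adjusted p = 7.65e-10), and the cytokine gene Osm at 2.44 to 9.35 CPM (median 3.73) against 23.4 to 246 CPM (median 64.5) (log2 fold change -4.12 ± 0.34, adjusted p = 1.58e-08). No mouse's cDC1-gated cells reached the level of its cDC2-gated cells in any of these 10. Cd14 and Fn1 belong to the macrophage and monocyte marker lists. Over all genes, 10.6% were lower and 14.3% higher in cDC1-gated cells. Of the 4 tested genes of each list, 4 macrophage and 2 monocyte genes were lower and 2 monocyte genes higher. The 2 higher ones were Ly6c2 and Plac8, of which 1 was called with TMM scaling and none without the pDC-gate members. The 10 macrophage markers summed to 1321 ± 982 (WT) and 720 ± 318 CPM (CaMKK2 KO) in cDC2-gated cells, and to 399 and 220 CPM in cDC1-gated cells. The 6 monocyte markers summed to 2137 and 3938 CPM in cDC2-gated against 2581 and 3697 CPM in cDC1-gated cells. With an Flt3 requirement on cDC2, 1341 of 7314 genes were called. The part of macrophages or monocytes in the cDC2 gate was not tested.

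**Figure D2:**
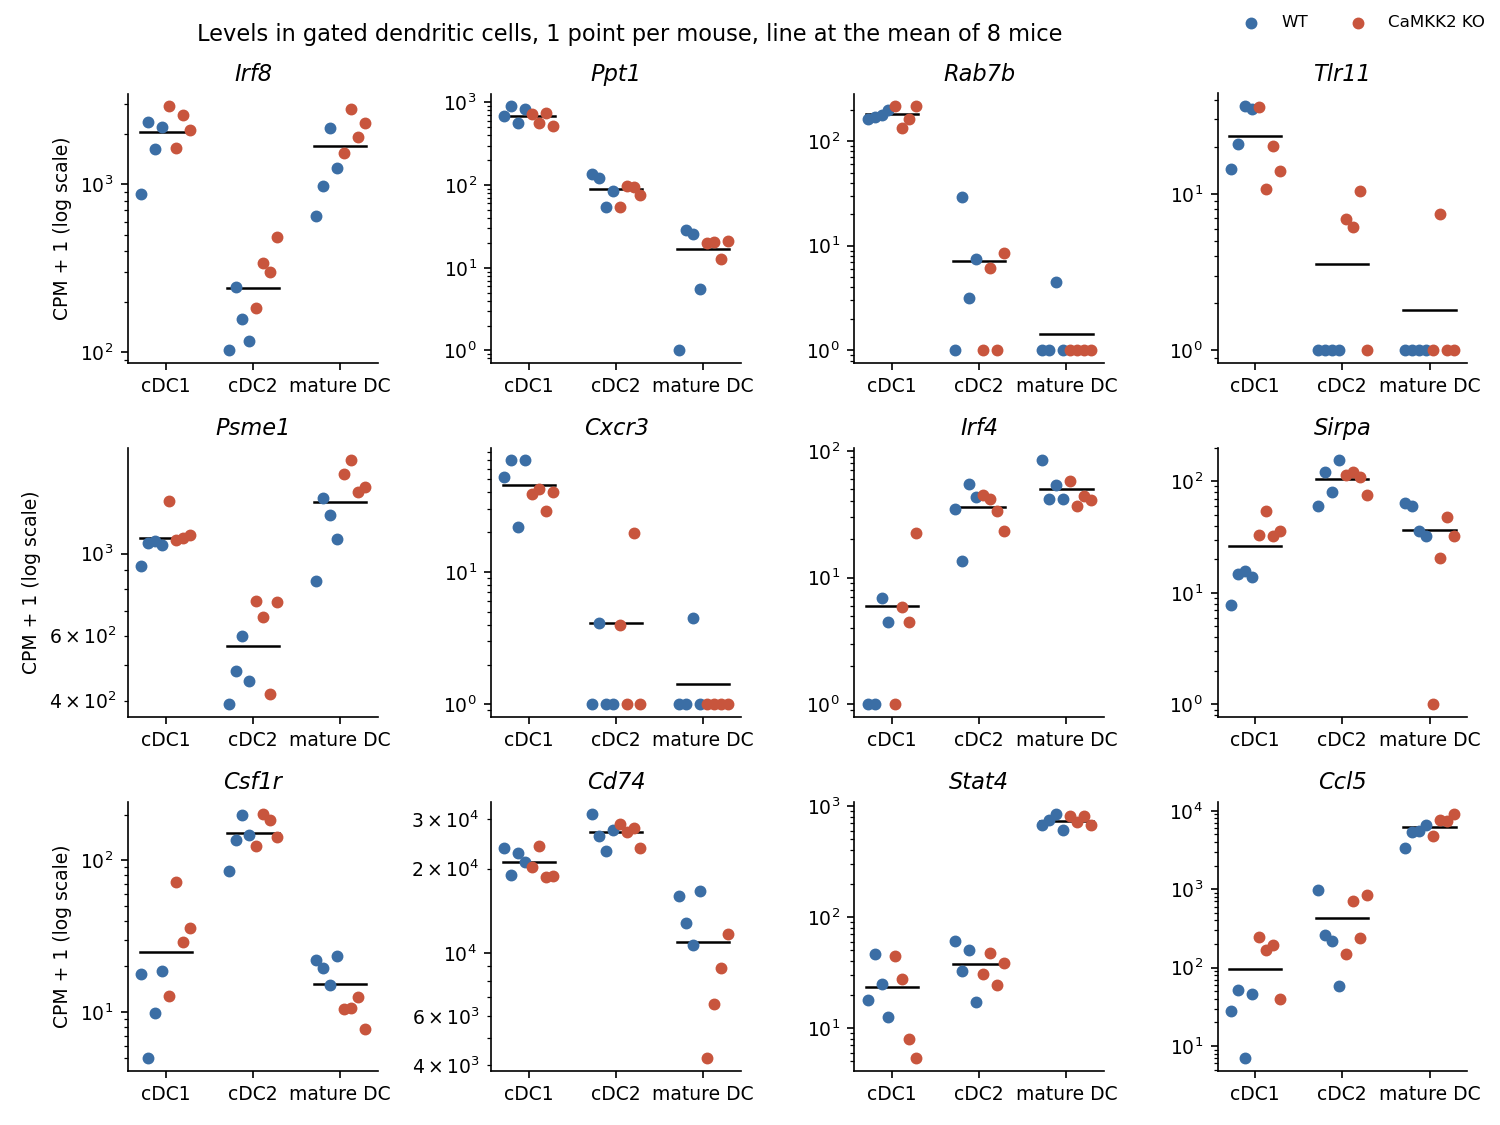
Levels of 12 genes in cDC1-, cDC2- and mature DC-gated cells, as CPM plus 1 on a log axis; each point is the sum over the cells of 1 mouse, blue for WT and red for CaMKK2 KO, and the line is the mean of the 8 mice. Irf8, Ppt1, Rab7b, Tlr11, Psme1 and Cxcr3 lie above cDC2, Irf4, Sirpa, Csf1r, Cd74 and Ccl5 below it by their means, and Stat4 and Ccl5 are highest in mature dendritic cells.

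Calcium signaling genes were compared because CaMKK2 is a calmodulin-dependent kinase. Camkk2 itself was lower in cDC1- than in cDC2-gated cells (log2 fold change -1.73 ± 0.39, adjusted p = 0.0023), with the CaMKK2 KO mice in the fit. In the WT mice it stood at 27.0, 13.8, 26.7 and 19.9 CPM in cDC1-gated and 8.47, 53.4, 90.7 and 38.7 CPM in cDC2-gated cells. WT mouse 1 ran the other way. Camk1d, a kinase of the same cascade, was higher at 117 to 172 CPM (median 135) against 7.47 to 89.0 CPM (median 56.5) (log2 fold change 1.42 ± 0.21, adjusted p = 3.3e-05).

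Against mature dendritic cells the differences were broader. Of 7745 genes, 46.3% were called by the same test, 2139 higher (27.6%) and 1445 lower (18.7%) in cDC1-gated cells, and with TMM scaling 1806 were higher and 1662 lower, with the median over all genes down by 0.114 from 0.152. The maturation list was lower in full among its 15 tested genes, with a median log2 fold change of -4.43. Socs2, a feedback inhibitor of cytokine receptors, was at 0 to 8.77 CPM (median 1.46) against 315 to 1072 CPM (median 548) (log2 fold change -7.96 ± 0.30, adjusted p = 1.46e-13). Stat4, which transmits IL-12 signals, was at 4.33 to 45.4 CPM (median 20.3) against 610.2 to 851 CPM (median 727) (log2 fold change -5.09 ± 0.26, adjusted p = 5.64e-12). Relb, the NF-kB subunit of maturation, was at 10.1 to 113 CPM (median 33.4) against 504 to 1018 CPM (median 643) (log2 fold change -4.22 ± 0.22, adjusted p = 9.86e-12). None of these 3 overlapped between the classes. Il12b (-5.97 ± 0.45), Cd200 (-4.96 ± 0.23), Cd80 (-4.43 ± 0.23) and Cd86 (-0.94 ± 0.17) were lower too.

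The identity genes of cDC1 were mostly, but not all, higher than in mature dendritic cells. Of the 11 list genes beside the 4 markers, 9 were higher and 1 lower, beside 27.6% and 18.7% of all genes. Irf8 was not called (log2 fold change 0.32 ± 0.19, adjusted p = 0.175) and Batf3 was the lower gene (log2 fold change -0.45 ± 0.16, adjusted p = 0.0242). Irf8 was at 652 to 2798 CPM (median 1719) in mature dendritic cells, which overlapped the 879 to 2944 CPM (median 2160.1) of cDC1-gated cells. Batf3 was lower in 8 of 8 mice but was not called without the pDC-gate members (adjusted p = 0.0925).

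Of 11 MHC class II genes, 9 were higher in cDC1-gated cells and 1, H2-Eb2, was lower, beside 27.6% and 18.7% of all genes. H2-DMb1, part of the peptide exchange factor H2-M, was at 602 to 1102 CPM (median 848) against 28.5 to 169.8 CPM (median 88.0) (log2 fold change 3.14 ± 0.23, adjusted p = 1.43e-09). The class II transactivator Ciita was higher in 7 of 8 mice (log2 fold change 1.29 ± 0.25, adjusted p = 0.000226), and H2-Ab1 (1.44 ± 0.21) and Cd74 (1.04 ± 0.17) in all 8. Of 25 MHC class I and cross-presentation genes, 5 were higher, the cDC1 marker Wdfy4 among them, and 11 lower, beside the same shares of all genes. Psme1, higher than in cDC2, was lower than in mature dendritic cells (log2 fold change -0.31 ± 0.12, adjusted p = 0.0419) but was not called without the pDC-gate members (adjusted p = 0.0777).

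T cell stimulation genes were mostly lower. Of 17 stimulation and checkpoint genes, 13 were lower and 4 higher, beside 18.7% and 27.6% of all genes. Cd70, the ligand of CD27, had no UMI in cDC1-gated cells and 0 to 109 CPM (median 64.0) in mature dendritic cells, at least 85.9-fold lower with the floor of 3 counts over the class, and WT mouse 1 had none in either. Il15ra, which presents IL-15, was at 4.33 to 23.7 CPM (median 13.2) against 145 to 476 CPM (median 279) (log2 fold change -4.49 ± 0.24, adjusted p = 1.57e-11). The 4 higher genes were Il18 (2.23 ± 0.51), Havcr2 (2.96 ± 0.27), Lgals9, which encodes a TIM-3 ligand (3.16 ± 0.37), and Vsir, which encodes VISTA (1.61 ± 0.34). Ccl5 was at 5.94 to 243 CPM (median 47.9) against 3342 to 9173 CPM (median 6002) (log2 fold change -6.33 ± 0.37, adjusted p = 5.55e-11), and the migration receptor Ccr2 at 80.2 to 227 CPM (median 149) against 0 to 35.0 CPM (median 1.55) (log2 fold change 4.10 ± 0.41, adjusted p = 7.62e-08).

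Of 13 nucleic acid sensing genes, 7 were higher and 1 lower, beside 27.6% and 18.7% of all genes, and Unc93b1, the chaperone of endosomal Toll-like receptors, was among the higher (log2 fold change 1.99 ± 0.16, adjusted p = 3.57e-09). The cDC1 marker Tlr3 was also among the 7. Irf7, a factor for type I interferon, was higher in all 8 mice (log2 fold change 1.96 ± 0.32, adjusted p = 4.58e-05), and 12 of 26 type I interferon response genes were higher and none lower (9 higher with TMM scaling, and 10 higher and 2 lower among Xcr1-positive cells). Of 22 interferon-gamma response genes 11 were lower and 3 higher, with Irf1 (-2.0 ± 0.18) and the guanylate-binding protein Gbp5 (-2.45 ± 0.24) among the lower. Camk1d was higher here as well (4.57 ± 0.32). Camkk2 was not called (log2 fold change -1.05 ± 0.43, adjusted p = 0.0539), but was with TMM scaling (adjusted p = 0.035).

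The 10 largest rises over mature dendritic cells, present in every mouse, were Rab7b, Naaa, Cd36, Septin3, Clec1b, Pdia5, F630028O10Rik, Gramd2, Ckb and Cxcr3. Ckb, the brain-type creatine kinase, was at 441 to 764 CPM (median 662) against 0 to 22.3 CPM (median 8.72) (log2 fold change 5.72 ± 0.26, adjusted p = 1.85e-12). Septin3, a filament-forming GTPase, was at 26.0 to 145 CPM (median 70.1) against 0 to 3.50 CPM (median 0) (log2 fold change 6.31 ± 0.47, adjusted p = 1.43e-09). Cd36, Clec1b, Pdia5, F630028O10Rik and Gramd2 had no UMI in mature dendritic cells, with bounds of 13.5-fold (F630028O10Rik) to 32.1-fold (Cd36). The 10 largest falls were Gm47662, Nudt17, Tmem150c, Socs2, Clu, Fabp5, Gm13546, Ankrd33b, Synpo2 and Ramp3. Fabp5, a fatty acid-binding protein, was at 3.38 to 12.3 CPM (median 8.71) against 441 to 3279 CPM (median 1464) (log2 fold change -7.63 ± 0.27, adjusted p = 9.38e-14). Gm47662, Tmem150c, Clu and Synpo2 had no UMI in cDC1-gated cells, with bounds of 72.9-fold (Synpo2) to 162.3-fold (Gm47662).

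Cell cycle genes marked cDC1-gated cells against both other classes. Of 19 tested cycle genes, 18 were higher than in cDC2 (median log2 fold change 3.347), beside 14.3% of all genes. Against mature dendritic cells 18 were higher (median 2.24), beside 27.6% of all genes. The summed level of the 21 listed genes was 970, 1357, 1012 and 1384 CPM in the WT and 1453, 343, 426 and 2449 CPM in the CaMKK2 KO mice, against 144, 223, 160 and 187 CPM in cDC2-gated cells of the WT mice. CaMKK2 KO mice 2 and 3, which held the most Clec9a-only and pDC-gate cells, had the lowest levels, and CaMKK2 KO mouse 4, with 9 cells, the highest. Mki67, the proliferation antigen Ki-67, was at 54.1, 152, 95.0 and 136 CPM in WT against 155, 7.31, 5.26 and 203 CPM in CaMKK2 KO mice. None of the 19 tested cycle genes was called between the genotypes by edgeR or DESeq2 (1 had an unadjusted edgeR p under 0.05; median log2 fold change -0.305, beside 0.053 over all genes).

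Per cell, 76 of the 166 cDC1-gated cells (45.8%) held 5 or more UMIs of the cycle list. After every cell had been thinned to 4000 UMIs, which left out no cDC1-gated cell, this held for 24 (14.5%), against 0.694% of cDC2-gated, 1.15% of mature and 1.59% of pDC-gated cells. By mouse the thinned share of all cDC1-gated cells was 15.4, 21.7, 6.67 and 17.9% in WT and 13.3, 8.70, 10.3 and 22.2% in CaMKK2 KO mice, and these overlapped. Among Xcr1-positive cells alone it was 21.6%. Without the cDC1-gated cells with 5 or more cycle UMIs before thinning, the genes called between cDC1 and cDC2 fell from 1938 to 731. Of these, 366 were higher and 365 lower, of 6360 tested. The 23 cDC2-gated cells with as many cycle UMIs stayed in this fit, and 59 of the 102 Xcr1-positive cells were among those left out. This fit also lost CaMKK2 KO mouse 4, which had fewer than 5 cells left. With that mouse alone left out and the cycling cells kept, 1780 genes were called.

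**Figure D3:**
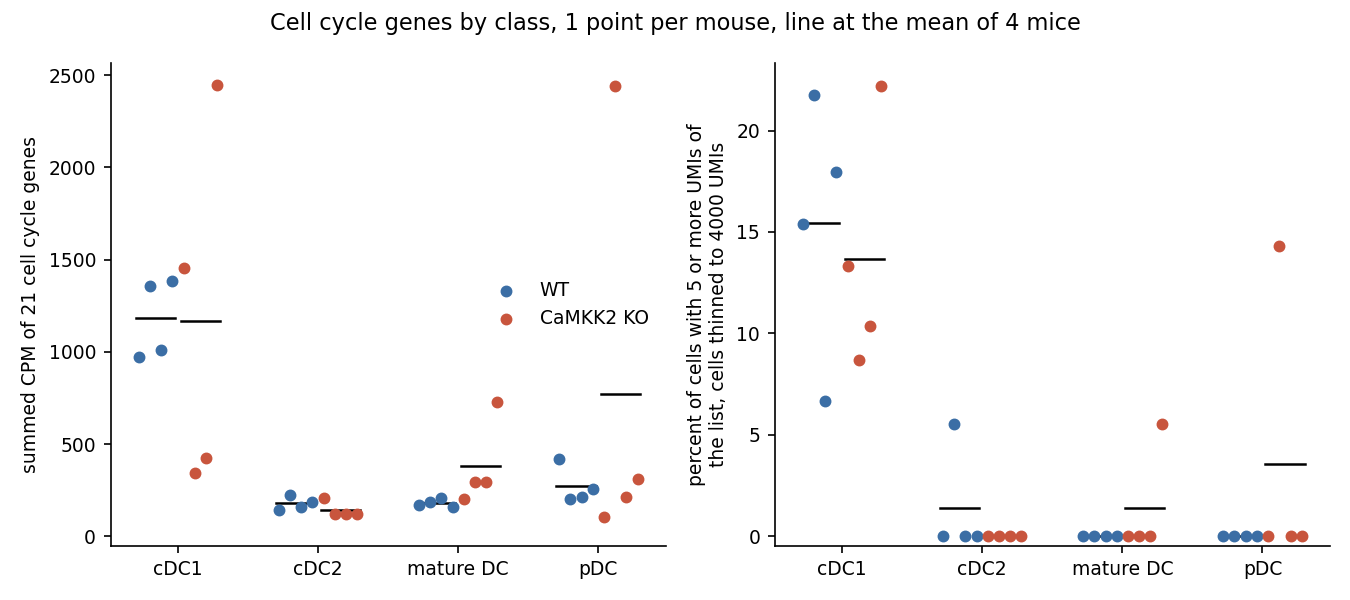
Cell cycle genes in 4 gated dendritic cell classes; each point is 1 mouse, blue for WT and red for CaMKK2 KO, and lines are means of 4 mice. On the left the y axis is the summed CPM of the 21 listed genes, from 343 to 2449 CPM in cDC1-gated cells, and on the right the percentage of cells with 5 or more UMIs of the list after thinning to 4000 UMIs, which stayed above 6% in cDC1-gated cells of all 8 mice.

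The share of cDC1-gated cells did not differ between the genotypes beyond the spread of the mice. Of all assigned cells they made up 1.17, 1.59, 1.02 and 2.53% in WT (1.58% ± 0.68, SD, n = 4) and 1.07, 1.28, 1.72 and 0.726% in CaMKK2 KO mice (1.2% ± 0.42, n = 4), a difference of -0.379 percentage points (two-sided exact permutation test, p = 0.457). WT mouse 4 was the highest, and without it the difference was -0.0607. Of gated dendritic cells they made up 34.1% ± 13.7 (WT, n = 4) and 26.6% ± 8.77 (CaMKK2 KO, n = 4), a difference of -7.54 points (exact permutation p = 0.371, adjusted p over the 2 shares = 0.457), and -3.43 points without WT mouse 1. The smallest p of 4 against 4 mice is 0.0286. At a sum of Xcr1 and Clec9a of 4 or more, the share of assigned cells differed by -0.465 points (exact permutation p = 0.171). That of gated dendritic cells differed by -11.1 points (exact permutation p = 0.229). With the pDC-gate members counted as pDC, a setting not planned, the differences were -0.524 and -11.2 points.

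The Xcr1-positive cells are a subset chosen after the values were seen and split by a gene of the rule, so their shares are given as levels only. Fits of genes in this subset, given in other paragraphs, were not planned either and show only how calls changed with the choice of members. Xcr1-positive cells made up 1.08, 0.965, 0.816 and 1.82% of assigned cells in WT and 0.781, 0.445, 0.711 and 0.404% in CaMKK2 KO mice. The lowest WT mouse lay just above the highest CaMKK2 KO mouse, so these shares did not overlap. Of gated dendritic cells, the difference for this subset was -13.3 points. Median UMIs per cell of this subset were 23384 in WT and 25183.5 in CaMKK2 KO mice, while over all cDC1-gated cells they were lower in CaMKK2 KO mice. After thinning to 4000 UMIs, the difference for all cDC1-gated cells was -0.272 points of assigned cells (exact permutation p = 0.457) and -12.5 points of gated dendritic cells (exact permutation p = 0.257).

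**Figure D4:**
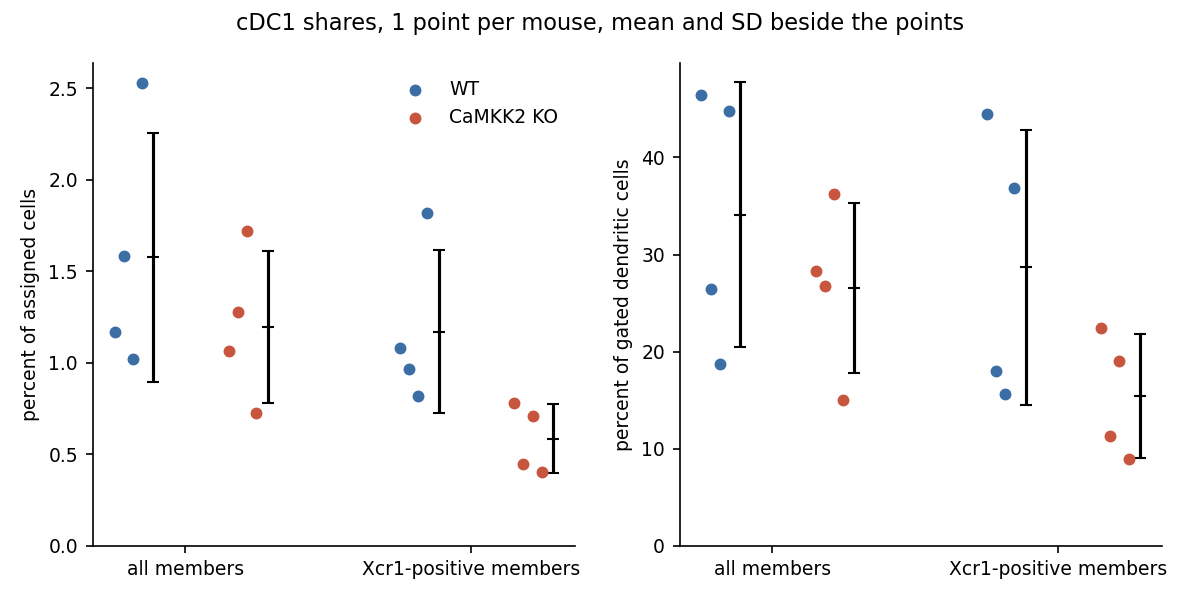
Shares of cDC1-gated cells among all assigned cells (left) and among gated dendritic cells (right), in percent, for all members and for Xcr1-positive members; each point is 1 mouse, blue for WT and red for CaMKK2 KO, with the mean and SD of 4 mice beside the points. The genotypes overlap for all members, and for Xcr1-positive members the WT shares of assigned cells start at 0.816% and those of CaMKK2 KO end at 0.781%.

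Loss of CaMKK2 was first checked on Camkk2. In cDC1-gated cells it was at 27.0, 13.8, 26.7 and 19.9 CPM in WT against 0, 2.44, 3.50 and 8.65 CPM in CaMKK2 KO mice, 41 against 5 UMIs. No CaMKK2 KO mouse reached the lowest WT mouse (exact permutation test, two-sided, p = 0.0286, the smallest the design gives, and 0.0858 adjusted over 3 classes). In cDC2-gated cells Camkk2 averaged 47.8 against 28.3 CPM (exact permutation p = 0.343) and in mature dendritic cells 30.4 against 20.4 CPM (exact permutation p = 0.4). Reads of the 3′ end need not span the deleted part of the gene, so this is a limited check of the labels.

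In cDC1-gated cells, 30 of 6508 genes differed between CaMKK2 KO and WT (0.461%), 22 higher and 8 lower, while 411 genes (6.32%) had genotypes that did not overlap and 707 had an unadjusted edgeR p under 0.05. The called genes included interferon-induced genes of the Ifi44 and Ifi200 families, the latter called in both directions, the lipid carrier Apoe, the protease inhibitor Spint1 and the integrin Itgal. The count was 19 among Xcr1-positive cells, of which 15 were among the 30, and 26 without the pDC-gate members, of which 21 were.

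Among interferon-induced genes, Ifi44l and Ifi202b had no UMI in cDC1-gated cells of any WT mouse. Ifi44l was at 327, 183, 163 and 199 CPM in the CaMKK2 KO mice, at least 139.4-fold higher with a floor of 3 counts over the 4 WT mice (edgeR adjusted p = 7.23e-06). Ifi202b, which encodes a DNA-binding interferon-inducible protein, was at 172, 275, 105 and 346 CPM, at least 133.4-fold higher (edgeR adjusted p = 8.21e-05). The same 2 genes had no UMI in any gated class of the WT mice, cDC2, mature dendritic cells, pDC, macrophages, B cells and T cells included. Ifi44, the neighbor of Ifi44l on chromosome 3, was at 64.2, 71.1, 89.1 and 70.1 CPM in WT against 494, 365, 373 and 346 CPM in CaMKK2 KO mice (log2 fold change 2.42 ± 0.18, adjusted p = 4.39e-06).

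The Ifi200 family moved in both directions. Of its 13 tested genes, Ifi202b and Mndal were higher and Ifi205 and Ifi213 lower, beside 0.338% and 0.123% of all genes. Genotypes did not overlap in 7 of the 13, beside 6.32% of all genes. Mndal was at 145, 253, 318 and 325 CPM in WT against 652, 736, 545 and 485 CPM in CaMKK2 KO mice (log2 fold change 1.2 ± 0.22, adjusted p = 0.0292), but was not called among Xcr1-positive cells (adjusted p = 0.056). Ifi205, also a gene of the cDC1 identity list, was at 595, 717, 858 and 738 CPM in WT against 167, 158, 124 and 126 CPM in CaMKK2 KO mice (log2 fold change -2.34 ± 0.17, adjusted p = 4.39e-06). Ifi213 was at 44.0, 65.2, 68.3 and 51.4 CPM in WT against 5.85, 0, 8.76 and 0 CPM in CaMKK2 KO mice (log2 fold change -3.61 ± 0.50, adjusted p = 0.0017) and was not called among Xcr1-positive cells (adjusted p = 0.0875). Members of this family are close copies of each other, and how reads were assigned among them was not tested.

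Beyond the interferon genes with such gaps, the response lists held few calls. Of 25 type I interferon response genes tested, Ifi44 and Ifi44l were higher and none lower by edgeR, beside 0.338% and 0.123% of all genes. By DESeq2, 4 of the 25 were higher and 1 lower (median edgeR log2 fold change 0.279, beside 0.053 over all genes). None of 20 interferon-gamma response genes was called by edgeR or DESeq2 (11 had an unadjusted edgeR p under 0.05, as had 707 of all 6508 genes), 17 had a positive log2 fold change, and the median was 0.746. Cxcl9, a ligand of CXCR3, was at 467, 314, 324 and 85.3 CPM in WT against 1345, 1888, 240.01 and 1536 CPM in CaMKK2 KO mice (log2 fold change 2.10 ± 0.53, adjusted p = 0.104), and CaMKK2 KO mouse 3 lay within the WT range. None of 25 MHC class I genes was called by edgeR or DESeq2 (13 had an unadjusted edgeR p under 0.05), with a median of 0.455 and 8 genes whose genotypes did not overlap (6.32% of all genes). B2m, the light chain of MHC class I, was at 2292, 2235, 2262 and 2170.4 CPM in WT against 2806, 3693, 2934 and 2969 CPM in CaMKK2 KO mice (log2 fold change 0.47 ± 0.12, adjusted p = 0.104). H2-K1 (adjusted p = 0.104) and Psmb8 (adjusted p = 0.223) did not overlap either. Of 10 MHC class II genes none was called by either tool (4 had an unadjusted edgeR p under 0.05), and the median was -0.002.

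The other called genes had various roles. Itgal, which encodes the alpha chain of LFA-1, was at 33.8, 21.7, 26.7 and 18.7 CPM in WT against 105, 63.3, 80.6 and 77.9 CPM in CaMKK2 KO mice (log2 fold change 1.76 ± 0.27, adjusted p = 0.00441), but was not called among Xcr1-positive cells (adjusted p = 0.292). Ly6a, which encodes the interferon-responsive Sca-1, was at 325, 545, 799 and 595 CPM in WT against 1569.8, 2541, 1459 and 1969 CPM in CaMKK2 KO mice (log2 fold change 1.73 ± 0.24, adjusted p = 0.0017). Wls, needed to secrete Wnt proteins, was at 3.38, 3.95, 2.97 and 1.17 CPM in WT against 167, 178, 235 and 95.2 CPM in CaMKK2 KO mice (log2 fold change 5.94 ± 0.41, adjusted p = 4.39e-06). S100a10, the partner of annexin A2, was at 71.0, 51.3, 107 and 103 CPM in WT against 292, 933, 373 and 394 CPM in CaMKK2 KO mice (log2 fold change 2.58 ± 0.35, adjusted p = 0.0017). All 4 were higher in every CaMKK2 KO mouse than in any WT mouse. Also called higher were Klra17 of the closely related Ly49 receptors, Il1rn, Fcer1g, Ncf4, Ahnak, Cyb561a3 and Rnf122, and Gm4841, Serpina3g, Srpk2, Nmral1 and Capg complete the 22 higher genes. Without the pDC-gate members, Fcer1g, Ahnak, Cyb561a3, Srpk2 and Capg were not called (Fcer1g adjusted p = 0.0627, Ahnak adjusted p = 0.0968), and Klra17, Rnf122 and Gm4841 had too few UMIs to be tested. Ncf4, a subunit of the phagocyte oxidase, was called in that fit and among Xcr1-positive cells (log2 fold change 1.19 ± 0.21 over all members). Il1rn, Klra17, Rnf122, Gm4841 and Capg were not tested among Xcr1-positive cells. Il1rn and Capg were over 10 times higher in gated macrophages than in cDC1-gated cells of the WT mice, at 125 and 303 CPM on average in WT and 329 and 536 CPM in CaMKK2 KO mice, and the part of free macrophage RNA in them was not tested.

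Apoe and Spint1 were lower. Apoe, the apolipoprotein of lipid-laden macrophages, was at 237, 259, 169 and 228 CPM in WT against 0, 17.1, 24.5 and 13.0 CPM in CaMKK2 KO mice (log2 fold change -3.88 ± 0.38, adjusted p = 7.41e-05). Gated macrophages of the same mice averaged 28468 CPM in WT against 2297 CPM in CaMKK2 KO mice, and T cells 335 and 30.8 CPM. The 10 macrophage markers, Apoe the most abundant and none at 0, summed to 399 ± 44.7 CPM in WT against 220 ± 33.4 CPM in CaMKK2 KO cDC1-gated cells, and the 9 without Apoe to 176 ± 21.9 and 206 ± 34.7 CPM. The share of free macrophage RNA in the Apoe counts of cDC1-gated cells was not tested. Spint1 was at 172, 115, 166 and 147 CPM in WT against 0, 0, 10.5 and 0 CPM in CaMKK2 KO mice (log2 fold change -5.20 ± 0.49, adjusted p = 5.18e-05). Its only CaMKK2 KO counts came from mouse 3.

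Several called genes are unnamed transcripts or close copies. Gm8797 was at 10.1, 3.95, 8.91 and 1.17 CPM in WT against 140.3, 168, 172 and 247 CPM in CaMKK2 KO mice (log2 fold change 5.18 ± 0.39, adjusted p = 4.39e-06), and averaged 7.18 against 189 CPM in T cells and 7.08 against 179.7 CPM in macrophages. Eif3j1 was lower (-2.31 ± 0.28) and its near-copy Eif3j2 higher (3.54 ± 0.42) in cDC1-gated cells. How reads were assigned between these copies was not tested. Gm47283, annotated at 90.8 Mb of chromosome Y, was lower (-2.92 ± 0.47) in these mice, all female, and where its reads came from was not tested. The chaperone Hspa1a was lower as well (log2 fold change -1.69 ± 0.33, adjusted p = 0.0348) but not without the pDC-gate members (adjusted p = 0.0607). A list of 12 genes that differed by genotype in other classes held 3 called higher here, Gm8797, Wls and Eif3j2. It held 5 called lower, Apoe, Ifi213, Gm47283 and Eif3j1 among them, beside 0.338% and 0.123% of all genes. The list was chosen on these data, so this is a description. Of the 30 called genes, 5 lie on chromosome 1 and 5 on chromosome 3, which hold 5.8% and 4.6% of the genes tested. In mm10 with the GENCODE M21 annotation, Ifi213, Mndal, Ifi202b and Ifi205 start between 173.6 and 174.0 Mb of chromosome 1, and Ifi44, Ifi44l and Wls between 151.7 and 159.8 Mb of chromosome 3.

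Of 15 tested genes of cDC1 identity, Ifi205 was the 1 called by edgeR, beside 0.461% of all genes, and DESeq2 called 2 lower. The median log2 fold change was -0.213 over all members and 0.131 among Xcr1-positive cells. Itgae was at 490.2, 409, 356 and 356 CPM in WT against 292, 173, 261 and 151 CPM in CaMKK2 KO mice, without overlap (log2 fold change -0.86 ± 0.21, adjusted p = 0.102). Of 9 pDC genes none was called by edgeR (4 had an unadjusted edgeR p under 0.05) and 1 by DESeq2, and of 8 cDC2 genes none by either tool (3 had an unadjusted edgeR p under 0.05). Their medians were 1.06 and 1.08, became 0.179 and 0.40 without the pDC-gate members, and were negative among Xcr1-positive cells (-0.239 and -0.308). Siglech, Ccr9, Cox6a2 and Ly6d, 4 of the 9 pDC genes, form the pDC gate, so leaving out its members removes their UMIs by construction. The summed pDC markers were 588, 1396, 1167 and 1328 CPM in WT against 1049, 1445, 3733 and 1428 CPM in CaMKK2 KO mice, with the highest in mouse 3. Ly6c2, a monocyte and pDC gene, was at 47.3, 355, 327 and 239.6 CPM in WT against 482, 987, 1323 and 1117 CPM in CaMKK2 KO mice (log2 fold change 1.99 ± 0.41, adjusted p = 0.0507), and was called without the pDC-gate members (adjusted p = 0.0101) but not among Xcr1-positive cells (adjusted p = 0.0875).

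Lists of other dendritic cell functions held no gene called by edgeR between the genotypes over all cDC1-gated cells. These were 12 dendritic cell transcription factors (3 with an unadjusted edgeR p under 0.05, 1 called by DESeq2), 15 chemokines and receptors (7 and 0), 10 T cell stimulation genes (3 and 0), 7 growth factor receptors (4 and 0), 7 genes of dead-cell uptake (1 and 0) and 10 nucleic acid sensors (2 and 0). Without the pDC-gate members the chemokine Ccl5 was called higher in CaMKK2 KO mice (adjusted p = 0.0357, against 0.0543 over all members), and it was not tested among Xcr1-positive cells. Their median log2 fold changes ran from -0.179 (sensors) to 0.386 (uptake), and these 2 were 0.065 and 0.111 among Xcr1-positive cells. Flt3, the receptor for the growth factor of dendritic cells, was at 243, 233, 232 and 195 CPM in WT against 158, 163, 196 and 173 CPM in CaMKK2 KO mice, and these overlapped (log2 fold change -0.38 ± 0.16, adjusted p = 0.41). Of the kinase's own pathway, none of 9 tested genes of calmodulin and AMPK signaling was called by either tool (1 with an unadjusted edgeR p under 0.05, median -0.063), nor any of 11 cholesterol genes (1, median -0.249) or 8 hypoxia and glycolysis genes (2, median 0.228). Of 12 immediate early and heat shock genes, Hspa1a was the 1 called, beside 0.461% of all genes.

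Summed markers of other cell types differed by list and mouse. The 6 NK cell genes, Gzma the most abundant and 1 at 0, summed to 16.9, 17.8, 14.8 and 14.0 CPM in WT against 778, 43.9, 22.8 and 38.9 CPM in CaMKK2 KO mice, which did not overlap. In gated macrophages they summed to 18.7 ± 1.18 against 47.6 ± 1.1 CPM. The 2 NK cell genes tested were not called (lowest adjusted p = 0.158 by edgeR, both with an unadjusted p under 0.05), and their genotypes did not overlap. The 5 T cell genes summed to at most 24.4 CPM and the 5 neutrophil genes to at most 13.0 CPM in any mouse, and 3 of 4 tumor genes were at 0. The 5 B cell genes, Ighm the most abundant and 2 at 0, summed to 110 ± 70.2 CPM in WT against 245 ± 49.4 CPM in CaMKK2 KO mice. The 6 monocyte genes, Plac8 the most abundant, summed to 2581 ± 369 CPM in WT against 3697 ± 606 CPM in CaMKK2 KO mice, beside 1618 and 3201 CPM in gated macrophages and 5568 and 6509 CPM in gated pDC. The part of these cells in the genotype differences was not tested.

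**Figure D5:**
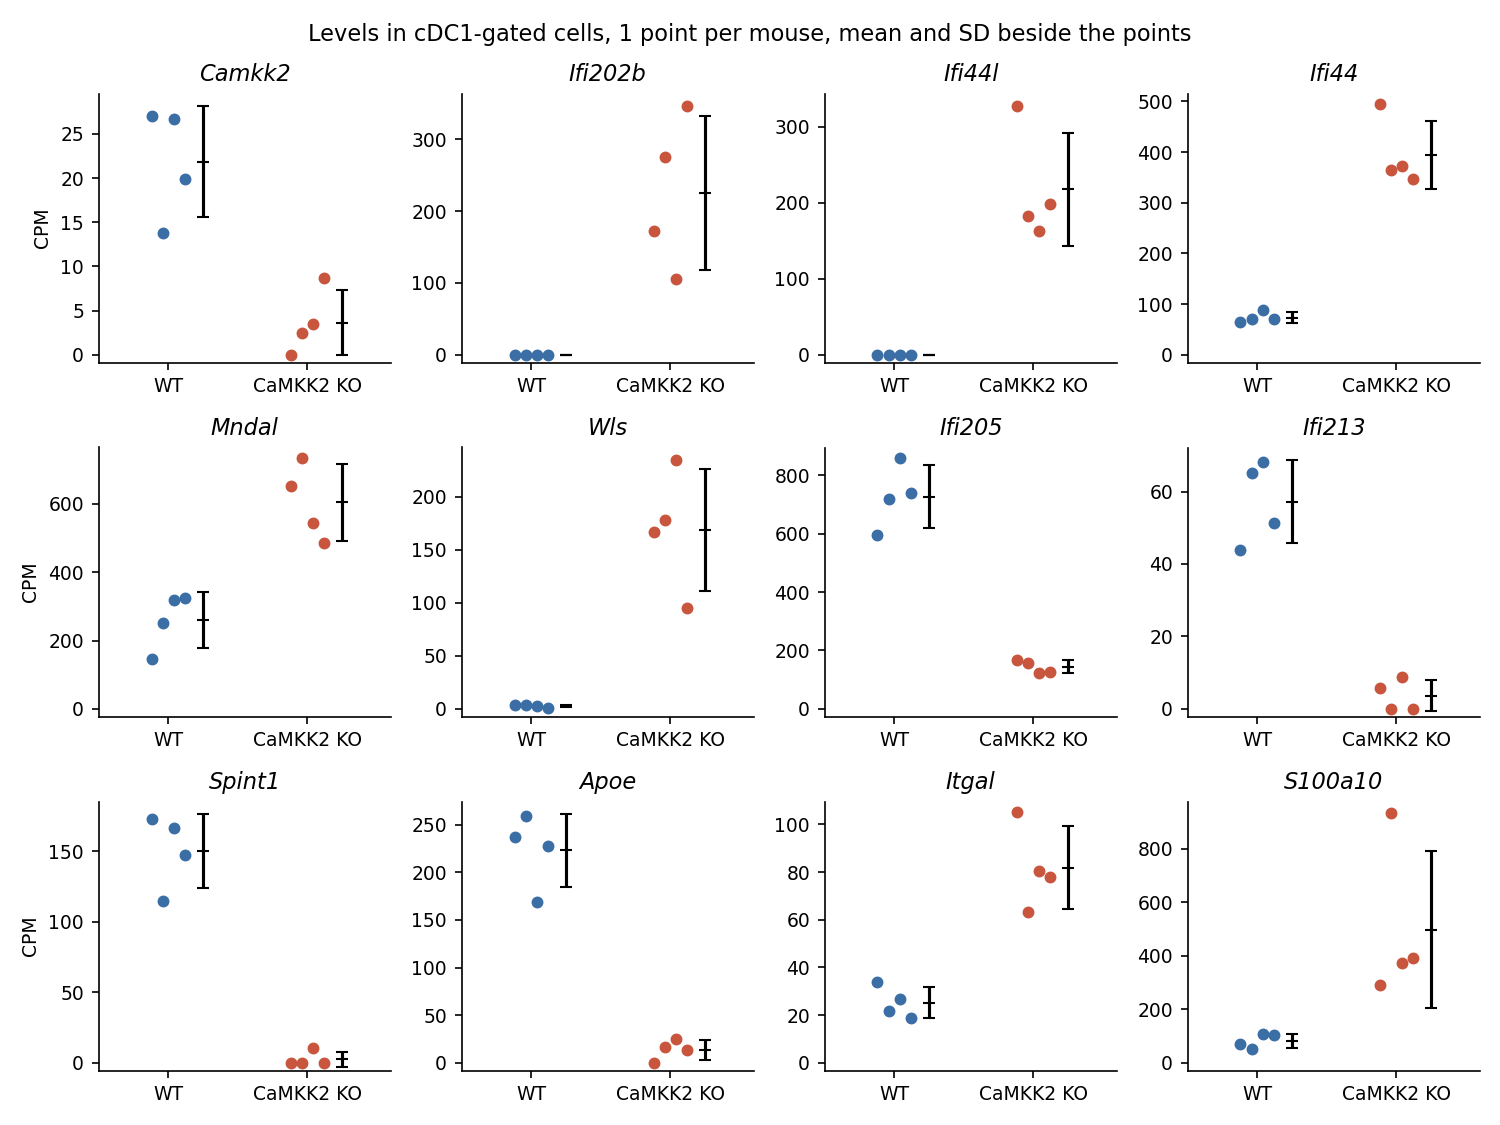
Levels of 12 genes in cDC1-gated cells, in CPM on linear axes; each point is 1 mouse, blue for WT and red for CaMKK2 KO, with the mean and SD of 4 mice beside the points. None of the 12 genes overlaps between the genotypes; Camkk2, Ifi205, Ifi213, Spint1 and Apoe are lower in CaMKK2 KO mice and the others higher.

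Whether the genotype acted differently in cDC1- than in cDC2-gated cells was tested as an interaction. Of 7757 genes, 1 was called (0.0129%), and 328 had an unadjusted p under 0.05. This was Pltp, the phospholipid transfer protein, at 3.38, 45.4, 5.94 and 15.2 CPM in WT against 49.7, 87.7, 221 and 56.3 CPM in CaMKK2 KO cDC1-gated cells. In cDC2-gated cells it was at 50.8, 239, 21.6 and 171 CPM in WT against 121, 41.0, 84.3 and 14.9 CPM in CaMKK2 KO mice. The difference of the log2 fold changes was 3.40 ± 0.56 (edgeR adjusted p = 0.0377). In cDC1-gated cells CaMKK2 KO mouse 3 held the highest level of Pltp. Without the pDC-gate members Pltp was no longer called (adjusted p = 0.428), nor in 6 of the 8 fits that left out 1 mouse. Ifi205, the identity gene that fell in cDC1-gated cells, was at 288, 163, 365 and 207 CPM in WT against 162, 136, 93.7 and 172 CPM in CaMKK2 KO cDC2-gated cells, and its interaction was not called (difference -1.49 ± 0.29, adjusted p = 0.0759).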

How the data were processed

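Live CD45+ cells from gliomas of 4 WT and 4 CaMKK2 KO mice had been profiled by 10x 3′ v3.1 sequencing, with hashtag antibodies telling the mice apart. The deposited counts are UMIs per gene and barcode, which the authors made with Cell Ranger 4.0.0 on mm10 (STAR 2.7.5c and bcl2fastq 2.20 are also named in the submitters' processing notes), with no normalization, for 31253 genes and 2 libraries. Hashtag counts were deposited in the same form, and a barcode was given a mouse with HTODemux (Seurat 5.3.0, quantile 0.99). Barcodes with 2 hashtags were left out as doublets, and no other doublet caller was run: 1.7 same-mouse doublets are expected among the WT and 1.72 among the CaMKK2 KO members from the hashtag rates. The libraries shared 42 barcode sequences, 1 of them of a member.

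Other classes were gated on the same filters: mature dendritic cells by at least 1 Ccr7 UMI and 5 UMIs of Ccr7, Fscn1 and Ccl22, pDC by 2 UMIs of Siglech and Ccr9 and 1 of Ly6d and Cox6a2, and cDC2 by 2 UMIs of Cd209a. Macrophages had 30 or more C1q UMIs, B cells 2 of Cd79a and T cells 2 of Cd3e. These gates rebuild the classes from marker genes and need not match the clusters of the study. Genes of the cDC1 rule were left out of all counts of called genes. Genes of the other gates were left out of the counts between classes and of the interaction. The counts between the genotypes in cDC1-gated cells include them.

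For each mouse and class the UMIs of its cells were added up, and genes with 50 or more UMIs were tested with edgeR 4.0.16 (glmQLFit and glmQLFTest, R 4.3.3), with the total UMIs as library sizes and p-values adjusted over all genes by Benjamini-Hochberg (called: under 0.05). The value after ± of a log2 fold change is its standard error, and of a level the SD over 4 mice. Comparisons between classes had mouse as a block. Single values were tested by two-sided exact permutation over mice (scipy 1.17.1), and p-values measure the spread between the mice of 1 channel. Cells differ in depth, and counting alone limits genes of few UMIs; a bulk sum cannot tell fewer expressing cells from less mRNA per cell. The fits were tested on simulated data. Alternatives were TMM, DESeq2 1.42.0, limma 3.58.1 (1 CPM added), other count minimums, gates and hashtag cutoffs, and leaving out each mouse.

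Named are Camkk2, genes of 29 lists and the 10 largest changes in each direction among called genes whose groups did not overlap, or that moved 1 way in every mouse. The members and the lists were chosen with earlier results of these data known. Coordinates are from GENCODE M21, which held 31107 of the 31253 gene identifiers. A few called genes are not reported here by name.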

Additional observations from a re-analysis of the deposited data

Results flagged for a closer look

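Among 244 groups of 4 or 8 values examined, 17 had 1 mouse apart from the others by a test of the gap to the next value, and chance gives about 1 in 20. In cDC1-gated cells, CaMKK2 KO mouse 1 stood apart in Gzma, a granzyme of NK and T cells (383 CPM), and in Naaa (1845 CPM), CaMKK2 KO mouse 2 in S100a10 (933 CPM) and CaMKK2 KO mouse 3 in Spint1 (10.5 CPM).

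In the log2 ratio of cDC1- to cDC2-gated cells (1 CPM added), WT mouse 1 stood apart in Cadm1 (0.62) and Cd86 (-1.24), CaMKK2 KO mouse 4 in Flt3 (2.5) and WT mouse 3 in Zeb2 (-5.65). In the ratio to mature dendritic cells, WT mouse 1 stood apart in Cd70 (0, with no UMI in either class) and Ifi205 (9.22), WT mouse 2 in Ramp3 (-3.59), and WT mouse 3 in Cxcr3 (2.27), F630028O10Rik (2.79) and Rab7b (5.31). CaMKK2 KO mouse 2 stood apart in Gm13546 (-4.62), H2-DMa (3.08) and Tlr11 (0.53).

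The effect of the genotype on Pltp differed between cDC1- and cDC2-gated cells by 3.40 on the log2 scale in the test of the interaction (edgeR adjusted p = 0.0377). It was not called without the pDC-gate members (adjusted p = 0.428), among Xcr1-positive cells (adjusted p = 0.687), with at least 200 UMIs, or in 6 of the 8 fits that left out 1 mouse.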

How the results depend on the processing

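Between the genotypes, 30 genes were called in cDC1-gated cells. The count was 49 with DESeq2 (28 of them among the 30), 15 with at least 200 UMIs, 270 with no minimum, 16 for a sum of Xcr1 and Clec9a of 4 or more, 18 without members holding a Ccr7 UMI and 19 for Xcr1-positive members alone. Leaving out 1 mouse gave 17 (without CaMKK2 KO mouse 2) to 45 (without CaMKK2 KO mouse 3) calls, and 14 genes were called in each such fit. Ifi202b, Ifi205, Spint1, Gm8797, Ifi44, Ifi44l, Wls and Apoe were among the genes called in every fit that tested them. Apoe was left out of the fit without genes far higher in macrophages. Against cDC2, 1938 genes became 731 without the cDC1-gated cells with 5 or more cycle UMIs. That fit also lost CaMKK2 KO mouse 4 (1780 without that mouse alone). The count was 1341 with an Flt3 requirement on cDC2 (3 CaMKK2 KO mice had enough cells), and 1546 to 1932 with 1 mouse left out. Against mature dendritic cells, 3584 became 2250 with at least 200 UMIs and 3142 to 3534 with 1 mouse left out. The interaction had 1 call, 2 with an Flt3 requirement on cDC2 (3 CaMKK2 KO mice had enough cells), and 0 with at least 200 UMIs, without the pDC-gate members or for Xcr1-positive members, and 0 to 2 with 1 mouse left out. Tcf4 against cDC2 reversed to -0.78 at a sum of 4 or more, to -0.735 without the pDC-gate members and to -1.83 for Xcr1-positive members. The cause of these changes was not tested. The share of assigned cells differed by -0.584 points for Xcr1-positive members, a subset chosen after seeing the data, and by -0.565 to -0.0607 with 1 mouse left out, and the share of gated dendritic cells by -12.7 to -3.43.

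Without mouse as a replicate block, 1799 genes were called against cDC2 and 3629 against mature dendritic cells, and the genotype comparison could not be paired, since WT and CaMKK2 KO mice share only hashtag numbers. Of the other values of single genes, 1987 kept their direction and side of the threshold under other settings, 105 were no longer called and 25 became called, and 1397 kept both, 90 lost and 8 gained the call with 1 mouse left out. Between 9 and 39 cDC1-gated cells per mouse limit precision, as do the 8 cDC2- and 5 mature DC-gated cells of WT mouse 1, the fewest of each class.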
